A study of Mus musculus with 55 samples.

Results

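The housing effect was examined in the susceptible (SUS) mice of the series, that is, in 9 mice raised in an enriched environment (EE SUS) and 10 mice raised in standard housing (SH SUS), which together make up 19 of the 54 mice. The members were taken from the labels of housing and social defeat phenotype, with 1 library per mouse, and no measured value was used to choose them. Tissue was punched out of the ventral dentate gyrus of male C57BL/6J mice. EE mice had lived from weaning in larger groups with tunnels, objects and running wheels, and SH mice in ordinary cages. As young adults, the SUS and resilient (RES) mice went through chronic social defeat stress (CSDS), in which an aggressive CD1 male defeats the mouse repeatedly, and they were then assigned to SUS or RES by the social interaction ratio. Beside the SUS mice stand 9 EE RES and 7 SH RES mice and the unstressed controls (CTRL), 9 in EE and 10 in SH. All of these mice were wild type, and the controls shared the housing but not the defeat. The SUS label was given after defeat, so EE SUS and SH SUS mice are a selected share of each housing, and which mice shared a cage is not stated in the labels.

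The dentate gyrus is the entry station of the hippocampus. Its granule cells receive cortical input, send mossy fibers to CA3, and are joined throughout adult life by new granule neurons born in the subgranular zone. Running and enrichment are known for raising the number of these new neurons, and the ventral part of the gyrus is linked to anxiety, mood and the stress response, in which mineralocorticoid and glucocorticoid receptors sense circulating corticosteroids.

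Each library yielded raw counts of read pairs per gene, given below as CPM, the counts scaled to a common library size after TMM normalization. Total gene counts lay between 18065586 and 23801480 in EE SUS mice, with a median of 20336643, and between 19651514 and 24061273 in SH SUS mice, with a median of 21816710. Of 9 measures of library quality, which included read pairs, unmapped, multimapping and mitochondrial shares, none separated the housings, with a smallest exact permutation p of 0.117 (two-sided, adjusted p = 0.365). The mitochondrial share was 5.64% ± 0.52 (SD, n = 9) in EE SUS and 5.64% ± 0.965 (SD, n = 10) in SH SUS mice.

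The tissue label held up against its markers. All 8 granule cell markers were detected in each of the 19 mice, with the transcription factor Prox1 at a mean of 139 CPM and the calcium buffer Calb1 at 254 CPM. The summed granule cell markers ranged from 953 to 1400.3 CPM in EE SUS mice (median 1129) and from 899.7 to 1457 CPM in SH SUS mice (median 1299), so that the groups overlapped almost fully. Markers of other tissues or cells stood out in several punches, and where this RNA came from was not tested. EE SUS mouse 5 had cerebellar markers at a sum of 42.7 CPM against at most 7.98 CPM in the other EE SUS mice, EE SUS mouse 7 had leukocyte markers at 69.1 CPM against at most 23.0 CPM, and choroid plexus markers reached 547 CPM in EE SUS mouse 3 and 369 CPM in SH SUS mouse 3, whereas the median was 22.4 CPM in EE SUS and 25.3 CPM in SH SUS mice. In bulk tissue, a change in the number of cells of a type cannot be told apart from a change in RNA per cell.

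The first question was which genes differ between EE SUS and SH SUS mice. Of 18283 genes tested, 1 passed an adjusted p of 0.05 in edgeR's quasi-likelihood test (0.00547% of the genes). That count was 0 without SH SUS mouse 2, and also 0 without EE SUS mouse 1, 2, 4, 5, 6, 7 or 9.

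At an unadjusted edgeR p below 0.05, 1346 genes differed (7.36%), with 750 higher (4.1%) and 596 lower (3.26%) in EE SUS mice. The criterion of the study's methods, a limma-voom p below 0.05 without adjustment and a fold change above 1.3, was met by 286 genes (1.56%), with 183 higher (1%) and 103 lower (0.563%). After adjustment limma-voom called 0 genes, with a smallest adjusted p of 0.147 and 1265 genes at an unadjusted p below 0.05 (6.92%), while DESeq2 called 1 gene. No gene separated the groups without overlap (0%). The genes named below as higher or lower therefore carry unadjusted p-values unless stated, and their counts are to be read against 4.1% higher and 3.26% lower among all genes. For some of them the number of mice beyond the range of the other group is also given. How many of all genes reach such numbers was not determined.

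Penk was higher in EE SUS mice. It encodes proenkephalin, the precursor of the enkephalin opioid peptides (chr4:4133531-4138819, minus strand). Its level was 15.5 to 23.3 CPM in EE SUS mice (median 19.5) and 11.2 to 15.8 CPM in SH SUS mice (median 13.5). Of the EE SUS mice, 8 of 9 lay above every SH SUS mouse, and 9 of 10 SH SUS mice lay below every EE SUS mouse. The log2 fold change was 0.51 ± 0.10 (SE), with an edgeR p of 5.56e-06 and an adjusted p of 0.0508, just short of the threshold, and the exact permutation test gave a two-sided p = 2.17e-05 over 92378 splits. Over 30 alternatives the log2 fold change ranged from 0.47 to 0.56 and the adjusted p from 0.00578 to 0.413, and it was below 0.05 in 7 of them, among them DESeq2 and the fit to the 19 SUS mice alone. Penk was higher in EE mice of every phenotype, with a log2 fold change of 0.39 ± 0.11 in RES and 0.72 ± 0.10 in CTRL mice, where its adjusted p was 4.57e-05. The housing effect on Penk in SUS mice differed from that in CTRL mice by -0.21 ± 0.14 (p = 0.144) and from that in RES mice by 0.12 ± 0.15 (p = 0.414). Within SH SUS mice the log2 Penk level correlated with the log2 sum of the thalamic markers described below at r = -0.86 (permutation p = 0.00156, adjusted over 6 relations p = 0.00936; rho = -0.71, permutation p = 0.0265, adjusted p = 0.0795), and at r = -0.63 without the 2 mice farthest from the median. In EE SUS mice the same r was -0.14 (exact permutation p = 0.714). With thalamic and choroid plexus scores as covariates the log2 fold change of Penk was 0.55 with an edgeR adjusted p of 0.0149, and with thalamic and oligodendrocyte scores it was 0.55 with an adjusted p of 0.0968, above the threshold.

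**Figure D1:**
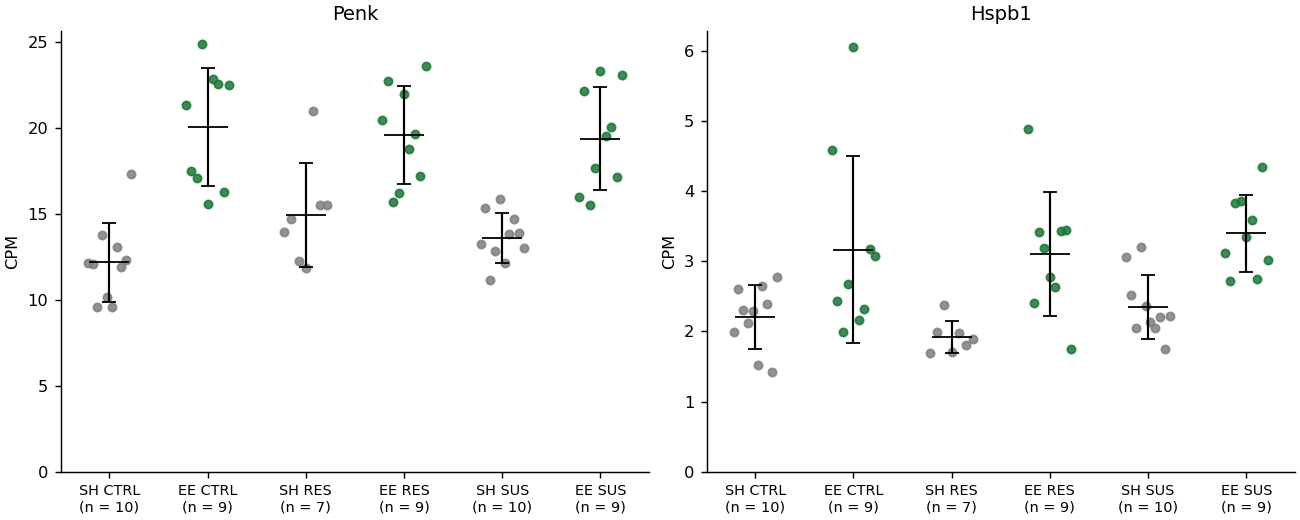
CPM of Penk (left) and of the small heat shock protein gene Hspb1 (right) in each mouse of the 6 groups, with SH mice in gray and EE mice in green; the horizontal lines and bars are mean and SD. For Penk, 8 of 9 EE SUS mice lie above all SH SUS mice, and for Hspb1 the 2 groups overlap between 2.72 and 3.20 CPM.

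The other 9 genes with the smallest p among those higher in EE SUS mice had adjusted p-values of 0.275 or more. Copz2, a subunit of the COPI vesicle coat, was at 5.63 to 8.62 CPM in EE SUS and 5.05 to 6.88 CPM in SH SUS mice, and 8 of 9 EE SUS mice exceeded every SH SUS mouse (log2 0.31 ± 0.07). Chn2, a GTPase-activating protein for Rac (log2 0.28 ± 0.07), and Eps8l2, a regulator of actin (log2 0.48 ± 0.13), each had 3 EE SUS mice above the SH SUS range. Chst3, which sulfates chondroitin chains of the extracellular matrix, was at 1.76 to 2.76 CPM in EE SUS and 1.33 to 2.41 CPM in SH SUS mice (log2 0.43 ± 0.11). Mpp6, a membrane scaffold, Necab3, a neuronal calcium-binding protein, and Tm6sf1 had log2 fold changes of 0.14 ± 0.04, 0.29 ± 0.08 and 0.21 ± 0.06. Ifit3b, an interferon-induced gene whose reads can be shared with its near-identical copy Ifit3, had a log2 fold change of 0.43 ± 0.11. Fat2, a cadherin of cerebellar granule cells, was at 13.6 CPM in EE SUS mouse 5 and at most 1.22 CPM in the other SUS mice, and its log2 fold change of 1.86 became -0.16 without that mouse.

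The genes named next were lower in EE SUS mice, and a shared function among them was not tested. Sec24d, a cargo adaptor of the COPII coat, was at 32.5 to 40.2 CPM in EE SUS mice and 35.8 to 46.7 CPM in SH SUS mice, with 6 EE SUS mice below the SH SUS range (log2 -0.26 ± 0.06, adjusted p = 0.252). Matn2, a matrix protein, followed with log2 -0.30 ± 0.07. Arhgef3, a guanine nucleotide exchange factor, was at 71.9 to 92.6 CPM in EE SUS and 89.9 to 103 CPM in SH SUS mice, and 8 of 9 EE SUS mice fell under the lowest SH SUS mouse (log2 -0.20 ± 0.05, adjusted p = 0.331). Rapgef5, an exchange factor for Rap, had log2 -0.18 ± 0.04. Skil, a repressor of TGF-beta signaling, had log2 -0.13 ± 0.03. Me3, the mitochondrial malic enzyme, Colgalt1, which glycosylates collagen, Nfyb, a subunit of the CCAAT-binding factor NF-Y, and B4galt4, a galactosyltransferase, had log2 fold changes from -0.15 to -0.17. None of these passed the adjusted threshold. Each of the 9 kept its sign and an unadjusted p below 0.05 without any 1 of the 19 mice. They had been chosen for their small p in these same mice, so this is no independent support.

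Whether these effects belong to SUS mice was asked by testing the difference between housing effects. At an adjusted p of 0.05, edgeR called 0 genes with another housing effect in SUS than in CTRL mice, with a smallest adjusted p of 1.0 and 720 genes at an unadjusted p below 0.05 (3.94%). For SUS against RES mice it called 0 genes, with a smallest adjusted p of 0.213 and 884 genes unadjusted (4.84%). Limma-voom called 0 genes for both, with 665 (3.64%) and 878 genes (4.8%) unadjusted, and DESeq2 called 0 genes for both. Among protein-coding genes with a mean of at least 1 CPM over the 19 mice, the smallest p for the difference from CTRL mice belonged to Arpin, an inhibitor of the Arp2/3 actin nucleator (log2 0.12 ± 0.04 in SUS, -0.09 in CTRL mice), Lingo4 (0.55 ± 0.16 and -0.24) and Mpp6 (0.14 ± 0.04 and -0.04). For the difference from RES mice they were Gripap1, an adaptor of AMPA receptor recycling (-0.04 ± 0.03 in SUS, 0.13 in RES mice), Ifit3b (0.43 ± 0.11 and -0.22) and Klhl32 (-0.02 ± 0.06 and -0.35). For Klhl32 the EE SUS mice lay at 33.6 to 39.1 CPM and the SH SUS mice at 33.1 to 40.2 CPM, so the SUS groups overlapped in full.

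The 3 housing contrasts share no mouse, so their values can be set side by side. Of the 1346 genes with an unadjusted p below 0.05 in SUS mice, 81.7% had the same sign in RES mice and 69.2% in CTRL mice, whereas over all 18283 genes the shares were 63.4% and 54.9%. The same direction at an unadjusted p below 0.05 was met by 377 genes in SUS and RES mice (28.0% of the SUS and 12.8% of the 2934 RES genes, which were 16% of all genes) and by 134 genes in SUS and CTRL mice (9.96% of the SUS and 14.6% of the 917 CTRL genes, which were 5.02% of all genes). In all 3 phenotypes 59 genes met it, 17 higher and 42 lower in EE mice. Besides Penk, Sec24d, Skil, Rapgef5 and Me3, they held the mineralocorticoid receptor gene Nr3c2 and the chaperone genes Hspb1, Hspa1b and Hspa5. Chosen after their values were seen, Rbm3, a cold-inducible RNA-binding protein, was lower in EE SUS mice (37.3 to 73.5 CPM against 66.5 to 96.6 CPM, log2 -0.38 ± 0.12), and so were Scgn, the calcium sensor secretagogin (log2 -0.50 ± 0.15), Slc6a15, a neutral amino acid transporter (log2 -0.18 ± 0.05), and Galns, a lysosomal sulfatase (log2 -0.25 ± 0.07). Calr, the calcium-binding chaperone of the endoplasmic reticulum (log2 0.20 ± 0.07), Serpinh1, the collagen chaperone (0.16 ± 0.07), Ahsa1, an activator of Hsp90 (0.12 ± 0.05), Hsf4, a heat shock transcription factor (0.26 ± 0.09), and Adgrl4, an endothelial adhesion receptor (0.29 ± 0.08), were higher.

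**Figure D2:**
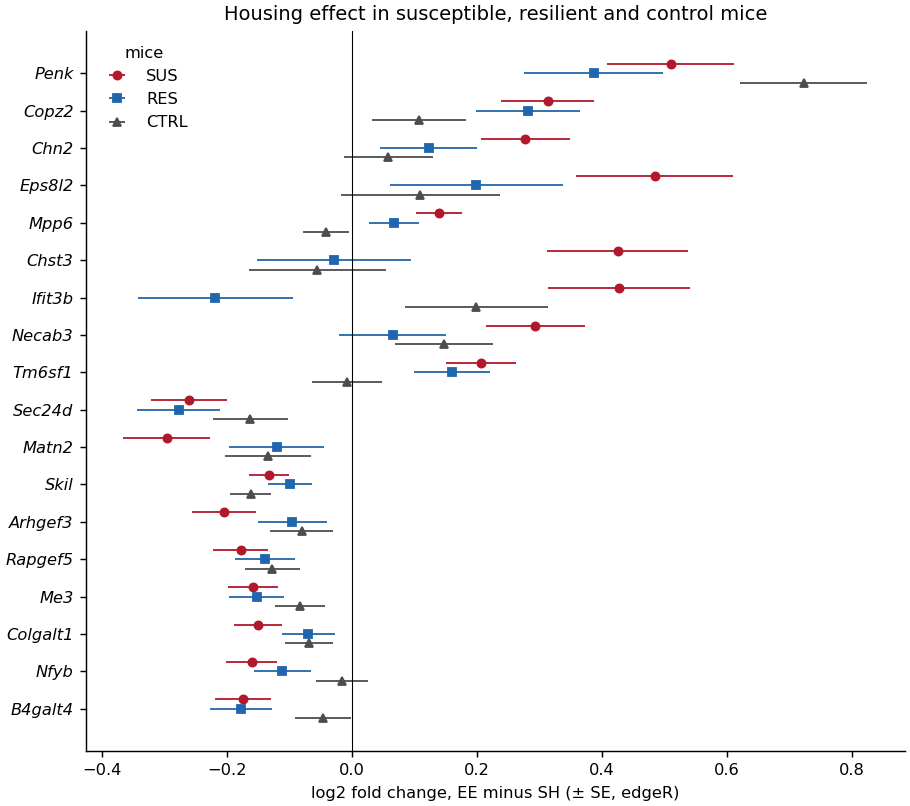
Housing effect (log2 fold change, EE minus SH, with SE from edgeR) in SUS, RES and CTRL mice for 18 genes, 9 higher and 9 lower, among those with the smallest p in SUS mice; Fat2, which rests on 1 mouse, is left out. Penk, Sec24d, Skil, Rapgef5 and Me3 lie on the same side of 0 in all 3 phenotypes, while Chst3 and Ifit3b lie on the other side of 0 in RES than in SUS mice.

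Some chaperone genes were higher in EE mice of each phenotype, and of the 14 on the list Hspb1, Hspa1b and Hspa5 were so in all 3. Heat shock proteins fold and refold proteins in the cytosol, and Hspa5 does so in the endoplasmic reticulum. In SUS mice, 6 of 14 members were higher and 0 lower, with a median log2 fold change of 0.11 (0.00 over all genes), and 7 of 14 were higher in EE RES (8.29% of all genes higher, 7.76% lower) and 4 of 14 in EE CTRL mice (2.67% higher, 2.34% lower). Without any 1 of the 19 mice, the count in SUS mice stayed between 5 and 8, and it was 6 with thalamic and oligodendrocyte scores as covariates. Hspb1, the small heat shock protein Hsp27, was at 2.72 to 4.35 CPM in EE SUS mice (median 3.35) and 1.75 to 3.20 CPM in SH SUS mice (median 2.21), with log2 fold changes of 0.53 ± 0.16 in SUS, 0.68 in RES and 0.52 in CTRL mice. Hspa1b, an inducible Hsp70, was at 11.5 to 14.7 CPM in EE SUS mice and 9.86 to 12.7 CPM in SH SUS mice, with 8 of 9 EE SUS mice above all SH SUS mice (log2 0.28 ± 0.09, and 0.27 in both RES and CTRL mice). Its reads can be shared with the near-identical Hspa1a (log2 0.12 ± 0.08). Cryab, another small heat shock protein, Hsph1, a nucleotide exchange factor of Hsp70, Hspa5 and Dnajb1, a cochaperone of Hsp70, had log2 fold changes of 0.27 ± 0.09, 0.17 ± 0.07, 0.20 ± 0.10 and 0.11 ± 0.04. The most abundant member per length, the constitutive Hspa8, was at 477 CPM per kb.

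The starts of the chaperone genes that were higher in all 3 phenotypes are shown because the heat shock factor and the unfolded protein response act through known elements there. RefSeq promoters were at hand for 10 of the 14 chaperone genes. The 250 bases before the start are given 5′ to 3′ on the gene's strand (GRCm38.p6), with the fixed letters of a match in capitals. For Hspb1 (chr5:135887669-135887918, plus strand) and Hspa1b (chr17:34959239-34959488, minus strand) the capitals mark the heat shock element GAANNTTC, and for Hspa5 (chr2:34771840-34772089, plus strand) they mark the endoplasmic reticulum stress element, CCAAT and CCACG set apart by a spacer of fixed length.
Hspb1: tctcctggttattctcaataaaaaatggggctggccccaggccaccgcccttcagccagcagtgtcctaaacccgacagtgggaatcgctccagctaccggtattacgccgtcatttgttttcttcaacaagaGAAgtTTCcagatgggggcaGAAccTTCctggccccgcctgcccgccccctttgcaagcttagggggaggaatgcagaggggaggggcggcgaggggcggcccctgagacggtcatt
Hspa1b: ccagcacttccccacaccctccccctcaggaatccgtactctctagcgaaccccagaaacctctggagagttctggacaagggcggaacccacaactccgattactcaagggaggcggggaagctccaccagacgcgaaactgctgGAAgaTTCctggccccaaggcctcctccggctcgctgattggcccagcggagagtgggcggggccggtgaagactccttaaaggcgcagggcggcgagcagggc
Hspa5: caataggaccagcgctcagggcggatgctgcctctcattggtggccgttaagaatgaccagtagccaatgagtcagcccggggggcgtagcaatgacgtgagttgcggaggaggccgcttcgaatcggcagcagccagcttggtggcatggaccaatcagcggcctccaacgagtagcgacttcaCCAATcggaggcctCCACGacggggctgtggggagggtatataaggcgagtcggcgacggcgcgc

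Both strands of the 250 bases were searched. Hspb1 held GAANNTTC at 117 and at 97 bases before the start and Hspa1b at 104 bases before it, while the Hspa5 element began 65 bases before the start. Of the 10 chaperone promoters, 6 held GAANNTTC (those of Dnaja1, Hspa1a, Hspa1b, Hspb1, Hspd1 and Hspe1), against 6.69% of all 32851 promoters. The longer heat shock element with 3 units, which contains GAANNTTC, was found in 2 of the 10, those of Hspd1 and Hspe1, and in 0.466% of all promoters. The Hspa5 element was in 1 of the 10 and in 0.113% of all. Of the 6 genes with GAANNTTC, Hspb1 and Hspa1b were among the members with an unadjusted p below 0.05 in SUS mice. A match describes the letters and is not a measured binding site.

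Markers of the thalamus, which lies close to the hippocampus, stood higher in EE SUS mice. Of 10 thalamic markers, 8 were higher in EE SUS mice and 0 lower, with a median log2 fold change of 0.73. The median was 0.32 in RES and -0.37 in CTRL mice, with 0 of 10 members called in either, and 9 of 10 members had an unadjusted p below 0.05 for the difference between SUS and CTRL mice (3.94% of all genes), against 0 of 10 for the difference between SUS and RES mice (4.84% of all genes). Their sum ranged from 172 to 695 CPM in EE SUS mice (median 375) and from 132 to 539 CPM in SH SUS mice (median 220), so the groups overlapped. The high values came from EE SUS mice 1, 5, 6 and 8, whereas EE SUS mice 3, 7 and 9 lay below the SH SUS median. All 10 genes were detected in all 19 mice. Rora, a nuclear receptor and the most abundant member per length, was at 79.2 to 248 CPM in EE SUS and 64.2 to 187 CPM in SH SUS mice (log2 0.53 ± 0.22). Prkcd, a protein kinase C isoform, had log2 0.87 ± 0.38, and Slc17a6, the vesicular glutamate transporter of thalamic relay neurons, had log2 0.77 ± 0.36. Zic1, Lef1, Synpo2, Plekhg1 and Tnnt1 were between 0.58 and 0.97. The count of 8 depended on single mice and was 0 without EE SUS mouse 8, 1 without EE SUS mouse 6 and 2 without EE SUS mouse 1. It was 5 without SH SUS mouse 2 or SH SUS mouse 8 and 4 without SH SUS mouse 5. Whether this RNA has a part in the other differences was not tested beyond the covariates given here.

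Myelin genes also stood higher in EE SUS mice. Of 11 markers of mature oligodendrocytes, the cells that wrap axons in myelin, 8 were higher and 0 lower in EE SUS mice, with a median log2 fold change of 0.31. In RES mice the count was again 8 of 11 with a median of 0.34, and in CTRL mice it was 0 of 11 with a median of 0.09. For the difference between SUS and CTRL mice, however, 0 of 11 members had an unadjusted p below 0.05 (3.94% of all genes). The count was also 0 of 11 for the difference between SUS and RES mice (4.84% of all genes). Their sum was 1364 to 2398 CPM in EE SUS mice (median 1920) and 1077 to 2611 CPM in SH SUS mice (median 1351). The highest mouse of all was SH SUS mouse 3, and the EE SUS range fell inside that of SH SUS mice. Mbp, myelin basic protein, was at 457 to 806 CPM in EE SUS mice (median 636) and 386 to 815 CPM in SH SUS mice (median 459, log2 0.31 ± 0.12), and Mobp, Mag, Cnp, Mal, Cldn11 and Ermn had between 0.23 and 0.40. Precursors of oligodendrocytes showed 0 of 7 members called and a median of 0.03. The log2 sums of myelin and thalamic markers correlated within SH SUS mice (r = 0.76, permutation p = 0.0108, adjusted p = 0.0325; rho = 0.72, permutation p = 0.0229, adjusted p = 0.0795; r = 0.55 without the 2 farthest mice) and within EE SUS mice (r = 0.73, exact permutation p = 0.0312, adjusted p = 0.0624; rho = 0.63, exact permutation p = 0.076, adjusted p = 0.152; r = 0.83 without the 2 farthest). The myelin count fell to 4 with choroid plexus and thalamic scores as covariates and to 2 without EE SUS mouse 1, 3 without SH SUS mouse 4 or 10 and 4 without EE SUS mouse 6 or SH SUS mouse 2. It was 5 without SH SUS mouse 5 or 6, and 4 without EE SUS mice 5 and 7 and SH SUS mouse 2 together.

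**Figure D3:**
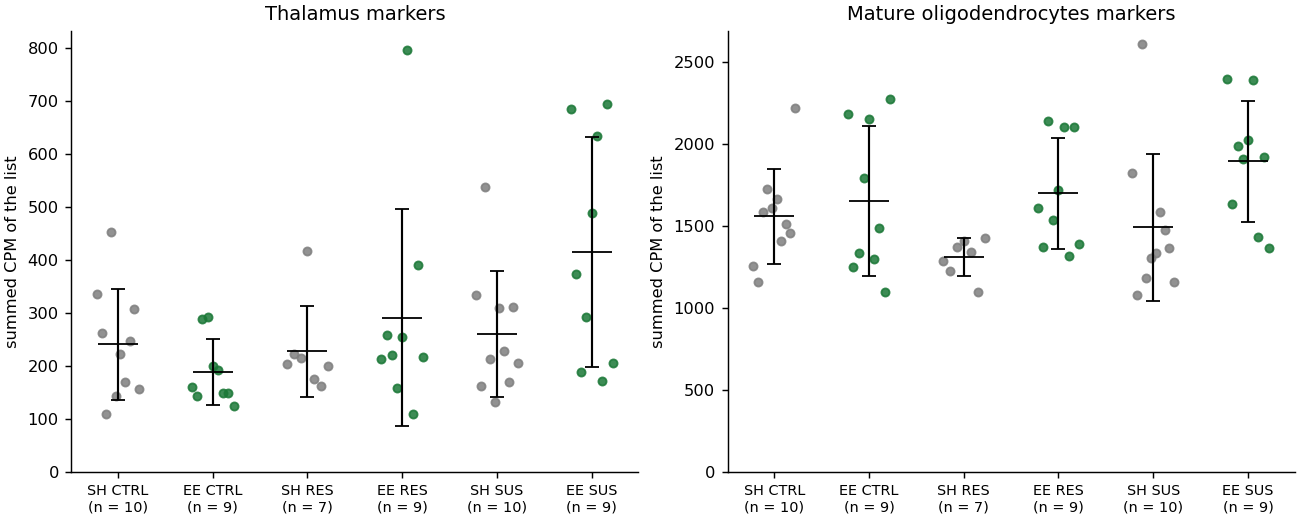
Summed CPM of the thalamic (left) and mature oligodendrocyte (right) marker lists in each mouse of the 6 groups, with SH mice in gray and EE mice in green; lines and bars are mean and SD. Thalamic sums of EE SUS mice spread from 172 to 695 CPM, and myelin sums overlap between the 2 SUS groups.

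Among immune and vascular lists, all 18 genes of the interferon and antigen presentation list had positive log2 fold changes, with a median of 0.18, but only B2m, the light chain of MHC class I (0.17 ± 0.06), H2-D1, a class I heavy chain (0.19 ± 0.09), and Irf7, a master regulator of interferon genes (0.32 ± 0.15), had an unadjusted p below 0.05. The median of this list was 0.08 in RES and 0.06 in CTRL mice, and its count in SUS mice ranged from 1 (without EE SUS mouse 5, SH SUS mouse 7 or SH SUS mouse 10) to 6 (without EE SUS mouse 8). Of 10 microglial markers, 4 were higher, among them C1qa, C1qc and Csf1r, and 0 lower (median 0.10), and the count was 2 without SH SUS mouse 4 or 6 and 0 without EE SUS mouse 7, whose microglial sum was 682 CPM against at most 499 CPM in the other EE SUS mice. The same mouse had S100a9, a neutrophil calcium-binding protein, at 13.3 CPM, above at most 1.42 CPM in the other 18 mice, and without it the log2 fold change of S100a9 went from 1.98 to -0.62. Of the 9 leukocyte genes, 4 could be tested, of which 2 were higher and 0 lower with a median log2 fold change of 1.03, and without EE SUS mouse 7 the count was 0 and the median -0.030. Among those not tested, Cd3e and Cd3g, which define T cells, were at 0 counts in 16 and 11 of the 19 mice. Of 10 endothelial markers, Flt1, Pecam1, Ly6c1 and Abcb1a were higher and 0 lower, with log2 fold changes from 0.14 to 0.26 and a median of 0.13. That count was 1 without EE SUS mouse 4, EE SUS mouse 7, SH SUS mouse 4 or SH SUS mouse 6.

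Eomes, the transcription factor of intermediate progenitors, was at 0.539 to 1.38 CPM in EE SUS mice (median 0.732) and 0.344 to 0.719 CPM in SH SUS mice (median 0.490), with 5 of 9 EE SUS mice above all SH SUS mice (log2 0.71 ± 0.22). Its log2 fold change was -0.50 in RES and -0.06 in CTRL mice, and the unadjusted p for the difference between SUS and RES mice was 0.000488. Top2a, a topoisomerase of dividing cells, had log2 0.36 ± 0.16, and of the 8 progenitor genes 2 were higher and 0 lower. That count was 1 without EE SUS mouse 3 or 6 or SH SUS mouse 3, and 4 without EE SUS mouse 8 or SH SUS mouse 4, and Top2a lost its unadjusted p below 0.05 in 4 of the 19 fits without 1 mouse. Of 7 genes of immature granule neurons, all had positive log2 fold changes, and Igfbpl1 (0.41 ± 0.18) and Dpysl3, a cytoskeletal protein of growing axons (0.14 ± 0.06), had an unadjusted p below 0.05, with 1 to 2 members without 1 mouse. Among 8 granule cell markers, Dsp, which encodes desmoplakin, was lower (log2 -0.33 ± 0.13) and the median was -0.10.

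Corticosteroid and activity genes went in both directions. Of 16 genes of the corticosteroid list, Nr3c2, the high-affinity receptor for corticosterone, was at 299.7 to 346 CPM in EE SUS mice (median 330.3) and 339 to 398 CPM in SH SUS mice (median 360.4), with 6 of 9 EE SUS mice below all SH SUS mice (log2 -0.14 ± 0.04). It was lower in EE mice of the other phenotypes too, by -0.14 in RES and -0.17 in CTRL mice. Zbtb16, a glucocorticoid-induced transcription factor, had log2 -0.26 ± 0.07 in SUS, -0.05 in RES and 0.07 in CTRL mice, with an unadjusted p of 0.00197 for the difference between SUS and CTRL mice. Sgk1, a kinase induced by glucocorticoids, had log2 0.16 ± 0.08. Its unadjusted p was no longer below 0.05 in 7 of the 19 fits without 1 mouse, in which 0 to 2 members of the list were higher. Over the 11 other alternatives the log2 fold change of Sgk1 fell as low as 0.07. Of 18 immediate early genes, which respond within minutes to neuronal activity, Fosb (0.45 ± 0.14) and Ier2 (0.31 ± 0.14) were higher and Egr4 (-0.42 ± 0.15) lower, with a list median of -0.03 and 1 to 4 members higher without 1 mouse. Fosb was at 1.41 to 2.38 CPM in EE SUS and 1.03 to 1.67 CPM in SH SUS mice.

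Receptor lists held a few members with an unadjusted p below 0.05. Of 22 glutamate receptor genes, the AMPA subunits Gria1, Gria2 and Gria3 were lower, by -0.07 ± 0.03, -0.10 ± 0.04 and -0.07 ± 0.03, and the metabotropic Grm4 was higher (0.56 ± 0.26), though its value was -0.02 with choroid plexus and thalamic covariates. The count of 3 lower members was between 1 and 4 without 1 mouse, and it was 1 without EE SUS mouse 7 or 8 or SH SUS mouse 2, 4 or 6. The unadjusted p of Gria1 was no longer below 0.05 in 8 and that of Gria3 in 9 of the 19 fits without 1 mouse, and that of Gria2 in 0. For both Gria2 and Gria3, 4 EE SUS mice lay below all SH SUS mice. Of 20 monoamine receptor genes, the dopamine receptor Drd1 (0.43 ± 0.17) and the adrenergic receptor Adra1b (0.75 ± 0.29) were higher, and the serotonin receptor Htr5a (-0.16 ± 0.06) and Drd5 (-0.21 ± 0.09) lower, with 1 to 3 in each direction without 1 mouse. Over the 11 alternatives other than leaving out 1 mouse, the log2 fold change of Adra1b fell as low as 0.04. In 3 of them its unadjusted p was no longer below 0.05. Drd1 was also higher in EE CTRL mice (0.43), and 6 of 9 EE SUS mice exceeded all SH SUS mice. Ntrk3, the receptor of neurotrophin-3, was the 1 called member of the growth factor list (-0.14 ± 0.05), and Crhr1, the receptor of corticotropin-releasing hormone, joined Penk in the neuropeptide list (0.16 ± 0.08). The unadjusted p of Crhr1 was no longer below 0.05 in 11 of the 19 fits without 1 mouse, and 1 to 2 neuropeptide genes were higher in those fits. Of 18 genes of DNA methylation and histone deacetylation, the deacetylase genes Hdac1 (-0.13 ± 0.05), Hdac3 (-0.07 ± 0.03) and Hdac6 (-0.13 ± 0.04) were lower and 0 higher, and without EE SUS mouse 8 the count was 7.

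Other lists were near the background in SUS mice. Of 12 GABA-A receptor subunits, 16 genes of synaptic vesicle release, 16 clock genes, 13 genes of the mitochondrial genome and 82 nuclear genes of oxidative phosphorylation, 0 had an unadjusted p below 0.05 in SUS mice, and of 82 cytosolic ribosomal protein genes only Rps27l did. For the mitochondrial genome the counts were 11 of 13 higher in EE CTRL and 5 of 13 in EE RES mice, and its median log2 fold change was 0.02 in SUS and 0.31 in CTRL mice. The difference between SUS and CTRL mice had an unadjusted p below 0.05 for 2 of these 13 genes (3.94% of all genes). Between SUS and RES mice it did for 1 of 13 (4.84% of all genes). Of the 12 GABA-A receptor subunits, 1 was higher and 5 lower in EE RES mice (median -0.06), against 8.29% and 7.76% of all genes. In EE CTRL mice 0 were higher and 0 lower. The difference between SUS and RES mice had an unadjusted p below 0.05 for 5 of these 12 subunits, and that between SUS and CTRL mice for 0. Single members were called among perineuronal net and matrix genes (Hapln4, 0.29 ± 0.14), Wnt genes (Wnt2, 0.27 ± 0.12), astrocytes (Aqp4, 0.16 ± 0.07), meningeal fibroblasts (Igf2, 0.42 ± 0.15), interneurons (Gad1, -0.08 ± 0.03), CA3 and CA2 pyramidal cells (Rgs14, -0.17 ± 0.07) and cortex (Foxp2, 0.83 ± 0.38). Foxp2 was highest in EE SUS mice 8 and 6 (13.5 and 10.5 CPM), which also had high thalamic sums. Its unadjusted p was no longer below 0.05 in 6 of the 19 fits without 1 mouse. The same held in 4 of the 11 other alternatives, where its log2 fold change fell as low as 0.04. Of the markers of dorsal and ventral granule cells, mossy cells, CA1 pyramidal cells, mural cells, ependymal cells, choroid plexus and red cells, 0 were called, but without EE SUS mouse 3 all 5 tested red cell genes were lower.

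**Figure D4:**
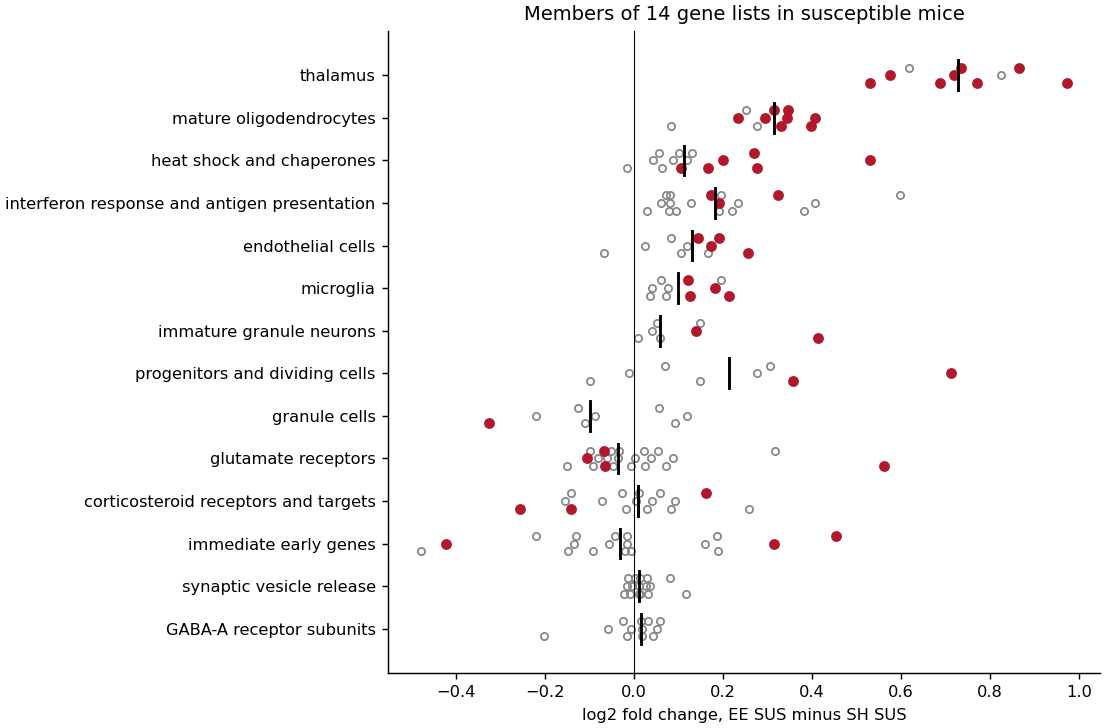
Log2 fold change (EE SUS minus SH SUS) of each tested member of 14 gene lists; red filled points have an unadjusted edgeR p below 0.05, gray open points do not, and black bars are list medians. Thalamic (0.73) and myelin (0.31) markers have the highest medians shown, and synaptic vesicle and GABA-A receptor genes cluster around 0.

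The gene modules named by the study were set beside the same background. The study's methods give fewer replicates per defeat group than the libraries used here and do not name the mice, so how far the modules rest on these 19 mice is not known, and they are not independent evidence. Of the 449 tested genes of the yellow module 98 were higher and 1 lower in EE SUS mice (median 0.09), and of the 297 tested genes of the cyan module 17 were higher and 2 lower (median 0.02). For the difference between SUS and CTRL mice, 62 of the 449 yellow genes had an unadjusted p below 0.05, against 3.94% of all genes. For the difference between SUS and RES mice the count was 14 of 449, against 4.84% of all genes. In EE RES mice 60 yellow genes were higher and 1 lower (median 0.09), and in EE CTRL mice 12 were higher and 6 lower. Of the 297 cyan genes, 5.72% were higher in EE SUS mice, against 4.1% of all genes. In EE RES mice 111 of them were higher and 1 lower (median 0.11), against 8.29% and 7.76% of all genes. In EE CTRL mice 7 cyan genes were higher and 3 lower. The difference between SUS and RES mice had an unadjusted p below 0.05 for 35 of the 297 (4.84% of all genes). That between SUS and CTRL mice did for 6 (3.94% of all genes). Of 14 hub genes, Plcb4, a phospholipase C (0.60 ± 0.22), Tnnt1, a troponin also in the thalamic list (0.97 ± 0.43), Vwc2 (0.34 ± 0.12), Cpne9 (0.28 ± 0.12), Usp43 (0.70 ± 0.33) and Chn2 were higher, 0 were lower and the median was 0.04. The count was 3 without EE SUS mouse 8. With thalamic and oligodendrocyte scores as covariates, 1 of the 14 hub genes was called.

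**Figure D5:**
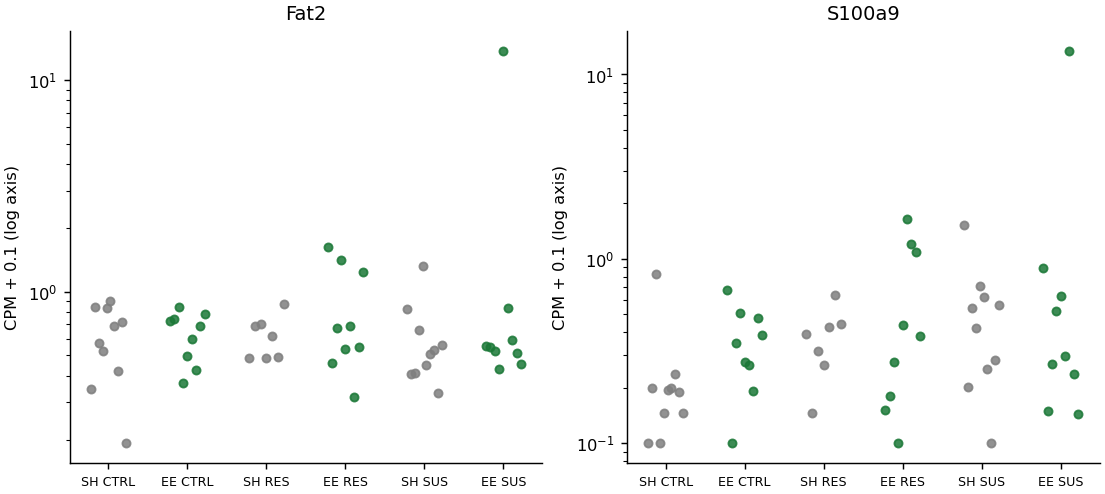
CPM plus 0.1, on a log axis, of Fat2 and S100a9 in each mouse of the 6 groups, with SH mice in gray and EE mice in green. In each panel 1 SUS mouse stands apart, EE SUS mouse 5 at 13.6 CPM of Fat2 and EE SUS mouse 7 at 13.3 CPM of S100a9.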

How the data were processed

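Total RNA of the ventral dentate gyrus had been sequenced from a stranded library kit, with 1 mouse per library. What the authors deposited are whole-number counts per gene that had not been normalized. Per the study's methods, reads were aligned to GRCm38 with STAR and quantified with featureCounts, whereas the tables look like the gene count output of STAR. STAR, Picard and the build mm10 are named in the submitters' processing notes. The reverse-strand column was used, because forward-strand counts were 3.51% to 4.13% of the gene counts. Rows for unmapped, multimapping, unassigned and ambiguous pairs were left out (in SUS mice, medians of 16.2%, 10.2%, 23.1% and 0.92% of pairs in EE and 15.9%, 9.75%, 23.9% and 0.925% in SH). Of 45318 identifiers, 44671 matched GENCODE M21, from which names, coordinates and exon lengths were taken. The 2 runs of EE CTRL mouse 9 were summed.

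Counts were filtered with filterByExpr and scaled by TMM in edgeR 4.0.16 (R 4.3.3), and the quasi-likelihood test was fitted to the 6 groups of 54 mice, so that p-values were adjusted over 18283 genes by the Benjamini-Hochberg method. Limma 3.58.1 (voom) gave the criterion of the study, and DESeq2 1.42.0 was an alternative. SE is the log2 fold change divided by the root of F. Per-mouse measures and single genes, as log2(CPM + 0.1), were compared with two-sided exact permutation tests. Correlations used all 362880 pairings for 9 mice and 100000 resamples for 10. Each mouse is an animal of its own, and counting error sets the limit for genes of low count. CPM per kb divides by exon length.

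On simulated counts for EE SUS against SH SUS mice, over 18169 genes, edgeR recovered 80% of 100 genes changed by a log2 value of 0.5 and 100% of 100 genes changed by 1, with 9 other genes called. The simulated spread followed the trend over expression level, without gene-specific spread or variation shared between genes. Only genes with a mean of at least 1 CPM were changed. The recovered shares therefore need not hold for the measured counts.

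The gene lists, markers and tests were chosen with earlier results of these data known, so that lists were described by counts and medians without a test. Named genes are the 10 protein-coding genes with the smallest edgeR p in each direction at a mean of at least 1 CPM over the 19 mice, the 3 genes with the smallest p for each difference of housing effects under the same filter, the most abundant and the called members of each list, and the hub genes of the study. Prox1, Hspa1a, Dnaja1, Hspd1, Hspe1, Rbm3, Scgn, Slc6a15, Galns, Calr, Serpinh1, Ahsa1, Hsf4, Adgrl4, Cd3e and Cd3g fall outside the rule. The 1 gene past the adjusted threshold and some list members are not reported here. Alternatives were other size factors, no or a stricter low-count filter, unstranded counts, other tests, sample quality weights, the replicate number as a block, marker scores as covariates, the 19 SUS mice alone, and each SUS mouse left out. After seeing the data, 3 were added, thalamic and oligodendrocyte covariates and 2 sets of mice left out.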

Additional observations from a re-analysis of the deposited data

Results flagged for a closer look

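Within each SUS group, 23 of the genes with the smallest p-values and 11 marker or pathway sums were screened with Dixon's ratio at the 95% level, in 68 sets of values. Chance flags about 1 in 20 of such sets, and 14 values were flagged.

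In SH SUS mouse 2, the cerebellar sum was the lowest at 3.95 CPM, with the next at 5.10 CPM. In EE SUS mouse 5, Fat2 was at 13.6 CPM and the cerebellar sum at 42.7 CPM, with the next EE SUS mice at 0.738 and 7.98 CPM. In SH SUS mouse 5, Fat2 was at 1.22 CPM, with the next at 0.731 CPM. EE SUS mouse 7 had the leukocyte sum at 69.1 CPM and the microglial sum at 682 CPM, with the next mice at 23.0 and 499 CPM.

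EE SUS mouse 3 had the choroid plexus sum at 547 CPM and the red cell sum at 441 CPM, with the next at 71.9 and 219 CPM. SH SUS mouse 3 had the thalamic sum at 539 CPM, the myelin sum at 2611 CPM and the choroid plexus sum at 369 CPM, with the next at 333, 1821 and 185 CPM. The same mouse was the highest for Eps8l2, at 4.66 CPM with the next at 3.49 CPM, and the lowest for Nfyb, at 42.5 CPM with the next at 46.6 CPM. Colgalt1 was highest in SH SUS mouse 4, at 67.1 CPM with the next at 59.3 CPM.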

How the results depend on the processing

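The count of genes past an adjusted p of 0.05 was 0 with limma-voom, with at least 1 CPM in 9 mice, with thalamic and oligodendrocyte covariates, without the 3 mice EE SUS 5, EE SUS 7 and SH SUS 2 and without the 4 mice with choroid plexus RNA, and 0 to 3 without 1 mouse. Where the count was 1, the gene was Penk with the replicate block, with choroid plexus and thalamic covariates, in the 19 SUS mice alone, with DESeq2 and without EE SUS mouse 3. Without SH SUS mouse 2 the count was 0, and without EE SUS mouse 8 it was 3, with Copz2 and Penk among them. The study criterion was met by 998 genes without a low-count filter and 138 with at least 1 CPM in 9 mice, of which 285 and 135 were among the 286, and by 235 to 365 genes without 1 mouse. Both counts for differences of housing effects were 0 in every alternative run. Replicate numbers are shared by both housings, but 2 of 9 same-numbered pairs had a correlation above 0.1 in their deviations (range -0.09 to 0.18) and no mouse matched its own number best; as a block, the number left 1 gene past the adjusted p and 289 genes at the criterion.

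Of 2877 recomputed fold changes of 96 genes, 383 lost an unadjusted p below 0.05 and 11 changed sign. The latter were Fat2 (-0.24 without the 3 mice, -0.16 to 2.12 without 1 mouse, the lowest without EE SUS mouse 5), S100a9 (-0.91 without the 3 mice, -0.62 to 2.41 without 1 mouse, the lowest without EE SUS mouse 7), Grm4 (-0.022), Lef1 (-0.0093) and Slc17a6 (-0.060) with choroid plexus and thalamic covariates, and Klhl32 (0.038), Prkcd (-0.012), Slc17a6 (-0.099) and Tnnt1 (-0.055) with thalamic and oligodendrocyte covariates. Covariates made of a list take out that list's own shift by construction. For the other lost calls the cause was not tested.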
